A study of Ovis aries with 2 samples.

Results

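PLCXD1, GTPBP6 and PPP2R3B are the 3 protein-coding genes nearest to the telomere at the pseudoautosomal end of the sheep Y-chromosome. They lie within the first 125000 bp of chromosome Y of ARS-UI_Ramb_v3.0, and the members examined here are the CpG sites from position 18833, the first that is listed, to position 125000. This interval of 106168 bp holds 4873 of the 372890 CpG sites of the chromosome, and the 3 genes are among 301 annotated on it. The DNA came from the lung of 1 fetus of 100 days, an F1 of a Churro x Friesian cross, and its CpG methylation was read with PacBio HiFi and with Oxford Nanopore (ONT) sequencing. There was no treatment and no second animal, so no comparison could be tested across animals, and the values describe this fetus. The 2 platforms are technical repeats, and a difference is set here against the spread between them. Only DNA methylation was measured, so the tissue could not be checked against marker genes.

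The pseudoautosomal region (PAR) is the part of the Y-chromosome that pairs and recombines with the X-chromosome in male meiosis, and its genes have a copy on both sex chromosomes. PLCXD1 encodes a protein with the catalytic X domain of phosphatidylinositol-specific phospholipase C. GTPBP6 encodes a mitochondrial GTP-binding protein that acts on the mitochondrial ribosome, and PPP2R3B encodes a regulatory B'' subunit of protein phosphatase 2A. In mammalian tissues, CpG-rich gene starts are commonly unmethylated, whereas the bodies of genes and the sequence between genes usually carry high methylation.

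PLCXD1 is on the plus strand from 33740 to 46817 and begins 33740 bp from the end of the assembled chromosome. GTPBP6 is on the minus strand from 50367 to 60402, and PPP2R3B is on the minus strand from 64883 to 112517. The 2 minus-strand genes therefore have their starts on the side away from the telomere, while PLCXD1 has its start on the telomere side. The region held 45.9 CpG sites per kb, against 14.4 on the whole chromosome. Cut into windows of the same length, the rest of the PAR gave 64 windows with 9.94 to 40.9 CpG sites per kb and a median of 18.9, so the region around the 3 genes was denser in CpG sites than each of them. Mean methylation in the region came to 64.5% ± 36.2 on PacBio and 56.7% ± 32.2 on ONT (± gives the SD between sites throughout), lower than in 62 of the 64 windows on PacBio and 61 on ONT. The median depth was 41 valid calls per CpG on PacBio, with a range of 12 to 152, and 178 on ONT, with a range of 66 to 335. The region's median depth was 1.05 times that of the male-specific region (MSY) on PacBio and 2 times on ONT, whereas the PAR medians of 60 and 169 calls stood against 39 and 89 in the MSY. The sources do not say whether reads were aligned to the Y-chromosome alone, and reads of the X copy of these genes cannot be told apart from reads of the Y copy here.

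**Figure D1:**
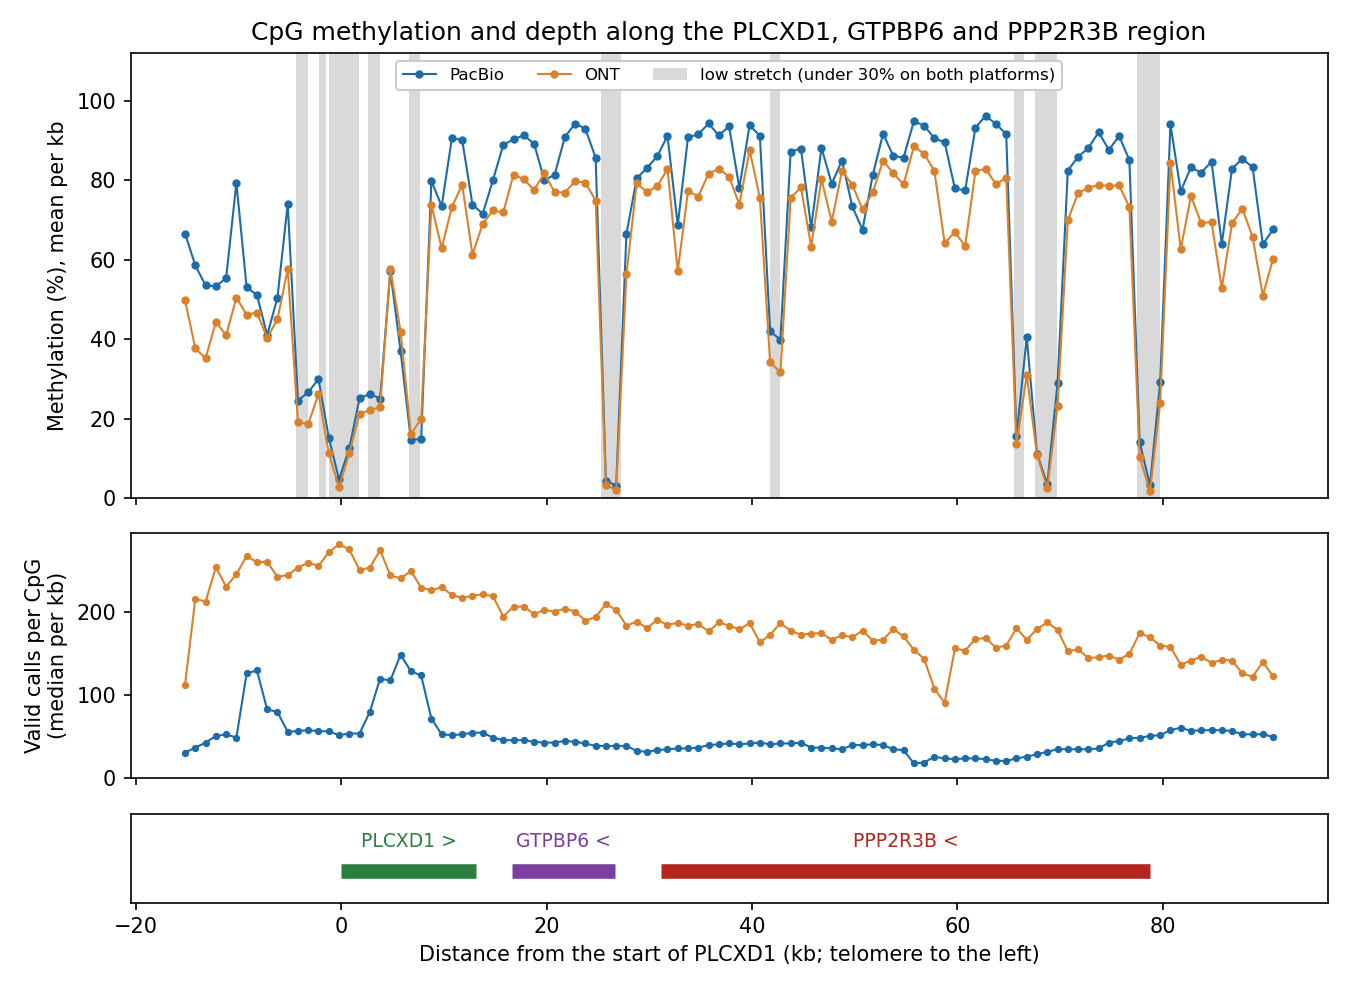
CpG methylation in percent (top, mean over the CpG sites of each kb) and valid calls per CpG site (middle, median per kb) on PacBio and ONT against distance from the start of PLCXD1 in kb, with the 3 genes and their direction below. Grey bands are the 10 stretches under 30% on both platforms, of which 5 lie around the start and first part of PLCXD1.

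The 3 gene starts were almost free of methylation on both platforms. Within 500 bp of its start, PLCXD1 had 90 CpG sites with a methylation level of 5.12% ± 7.68 on PacBio and 2.51% ± 1.80 on ONT. GTPBP6 had 115 CpG sites at 3.20% ± 0.57 and 1.82% ± 2.06. PPP2R3B had 119 CpG sites at 3.27% ± 1.44 and 1.71% ± 2.17. Each start was thus rich in CpG sites and nearly unmethylated. Pooled over all calls, the 95% Wilson intervals on ONT ran from 2.25 to 2.63% for PLCXD1, from 1.60 to 1.93% for GTPBP6 and from 1.45 to 1.80% for PPP2R3B, and they cover counting error only. GTPBP6 and PPP2R3B differed by -0.08 points on PacBio and 0.11 points on ONT, which is within the spread between platforms (SD 0.13). PLCXD1 was 1.92 points above GTPBP6 on PacBio and 0.69 on ONT (SD 0.87 between platforms), and 1.84 and 0.80 points above PPP2R3B (SD 0.74). Within 500 bp, the PLCXD1 start was thus above the other 2 on both platforms, by amounts close to the spread between them. This order rests on the window. Within 1000 bp, PLCXD1 had 6.54% on PacBio and 4.04% on ONT, GTPBP6 7.23% and 5.04%, and PPP2R3B 3.79% and 1.93%, so that GTPBP6 was the highest and differed from PPP2R3B by 3.44 and 3.11 points.

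A single CpG site accounts for part of the PLCXD1 value on PacBio. The site 325 bp into the gene had 74.8% from 51 PacBio reads and 2.66% from 188 ONT calls. Without it, the remaining 89 sites of the PLCXD1 start had 4.33% ± 1.98 on PacBio, with a highest site of 13.3%, and 2.51% ± 1.81 on ONT. On ONT the highest sites of the 3 starts were 11.2% for PLCXD1, 15.9% for GTPBP6 and 16.3% for PPP2R3B, and on PacBio the highest sites of the latter 2 were 6.10% and 17.2%. Every site of the 3 starts was therefore under 20% on both platforms, apart from that 1 PLCXD1 site on PacBio.

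**Figure D2:**
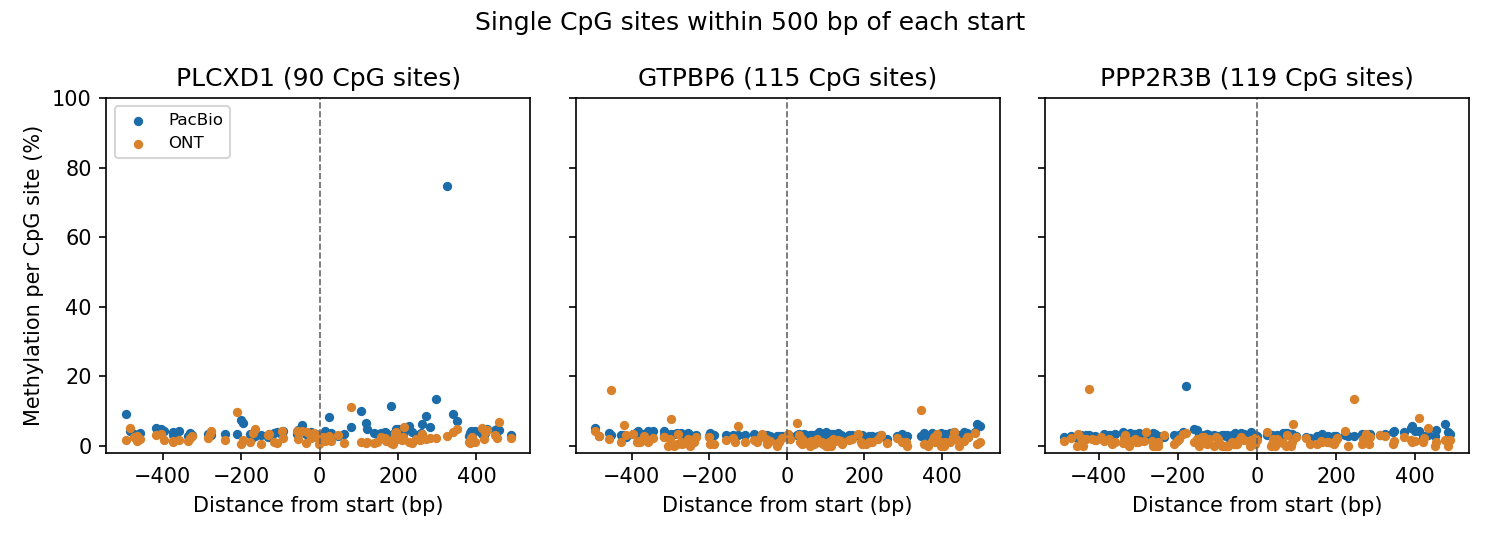
Methylation in percent of each CpG site within 500 bp of the start of PLCXD1, GTPBP6 and PPP2R3B against distance from the start in bp, on PacBio and ONT. Nearly all of the 90, 115 and 119 sites lie close to 0, and the PLCXD1 site at 74.8% on PacBio stands alone.

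A level of this kind was common among PAR genes. Under the rule of less than 20% on both platforms, 25 of the 43 protein-coding starts of the PAR that could be scored were low (58.1%), as were 35 of 101 on the whole chromosome (34.7%), and all 3 genes were among them. The median start in the PAR had 6.14% on PacBio and 3.16% on ONT. In ascending order of start methylation PLCXD1 stood at place 20 of 43 on PacBio and 18 on ONT, near the middle of the PAR starts. GTPBP6 stood at place 3 on PacBio and 11 on ONT, and PPP2R3B at place 6 on both. The start of SHOX, the homeobox gene of skeletal growth that is the next protein-coding gene, had 3.28% on PacBio and 1.94% on ONT over 109 CpG sites.

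The width of the unmethylated stretch was then measured at each start. Taking consecutive 250-bp bins under 30%, the stretch at the GTPBP6 start was 1930 bp on both platforms, with 591 bp before the start and 1338 bp inside the gene. The stretch at the PPP2R3B start was 2217 bp on both platforms, with 977 bp before the start and 1239 bp inside. At PLCXD1 it was 2947 bp on PacBio, with 1224 bp before and 1722 bp inside, and 4110 bp on ONT, with 2217 bp before and 1892 bp inside. At this setting GTPBP6 and PPP2R3B thus had stretches with sharp edges that the platforms placed in the same bins, and PLCXD1 had one with a ragged edge on the telomere side. With 100-bp bins the platforms differed slightly, at 1882 bp on PacBio and 1991 bp on ONT for GTPBP6, and 2291 and 2155 bp for PPP2R3B. At 50%, GTPBP6 had 1930 and 2157 bp. The PLCXD1 width depends on the threshold. At 20% it was 2718 bp on PacBio and 1938 bp on ONT, against 1930 bp for GTPBP6 and 2217 bp for PPP2R3B on both platforms, so it was the widest of the 3 on PacBio and not on ONT. At 50% it was 4608 bp on PacBio and 8707 bp on ONT. In the PAR, 30 protein-coding genes had such a stretch on each platform and 29 had one on both, and over the 30 the median width was 2214 bp on PacBio and 2216 bp on ONT, with a highest value of 20467 bp, at SHOX.

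**Figure D3:**
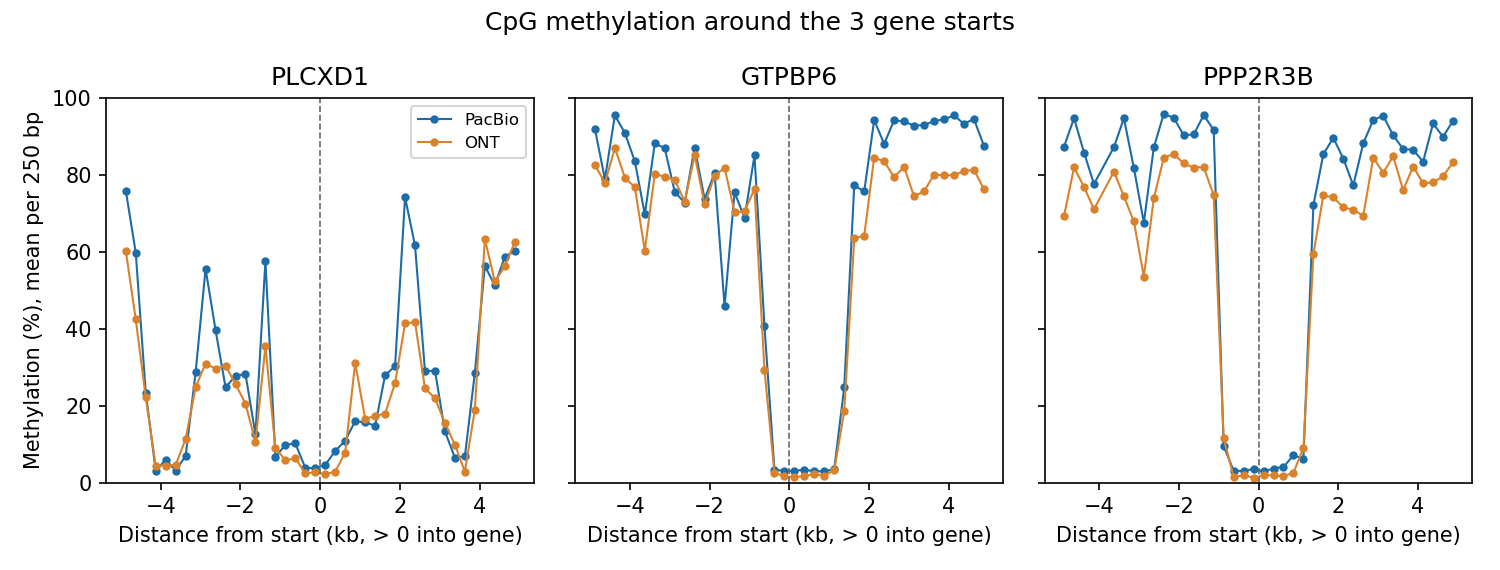
Methylation in percent (mean per 250 bp) from 5 kb before to 5 kb after the start of each gene on PacBio and ONT, with positive distances running into the gene. GTPBP6 and PPP2R3B have 1 trough with steep walls, and PLCXD1 has several troughs with partly methylated sequence between them.

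The shape of the profile was also compared with that of the other PAR genes. The measure was the root mean square difference over 12 steps of 500 bp within 3 kb of the start, averaged over the 2 platforms. The profile nearest to PLCXD1 among 40 genes was that of TBL1X, a subunit of the nuclear receptor corepressor complex, at 15.5 points, followed by SHOX at 20.9 points, with a median of 42.0 over the 40. Nearest to GTPBP6 was P2RY8, a G protein-coupled receptor, at 13.1 points, followed by PUDP, a pseudouridine phosphatase, at 14.7 points, with a median of 37.8. The next gene was almost level with PUDP, at 14.8 points. Nearest to PPP2R3B was PUDP at 13.4 points, followed by P2RY8 at 20.4 points, with a median of 37.1. GTPBP6 and PPP2R3B therefore shared the same 2 nearest profiles, and PLCXD1 had others. These are descriptions of likeness in 1 animal.

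The gene bodies, defined as the part of each gene more than 1 kb from its start, were methylated to different degrees. The body of GTPBP6 had 84.3% ± 21.4 on PacBio and 75.05% ± 19.3 on ONT over 387 CpG sites. The body of PPP2R3B had 73.3% ± 33.0 and 65.0% ± 29.7 over 2541 sites. The body of PLCXD1 had 54.8% ± 32.3 and 49.4% ± 27.0 over 581 sites. The order GTPBP6, PPP2R3B, PLCXD1 was the same on both platforms. The body of PLCXD1 differed from that of GTPBP6 by -29.5 points on PacBio and -25.7 on ONT (SD 2.67 between platforms), and from that of PPP2R3B by -18.4 and -15.7 points (SD 1.96). The body of GTPBP6 was 11.04 and 10.03 points above that of PPP2R3B (SD 0.71). All 3 differences were larger than the spread between platforms, and the spread between animals is unknown. Over whole genes, starts included, GTPBP6 had 67.5% and 59.9% and PPP2R3B 70.7% and 62.7%, so the order of these 2 turned. With medians over sites they differed by only 1.10 points on PacBio and 2.76 on ONT. With sites above 2 times the median coverage left out, PLCXD1 differed from PPP2R3B by -6.32 and -9.70 points and from GTPBP6 by -17.4 points on PacBio.

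Body minus start was 49.7 points on PacBio and 46.8 on ONT for PLCXD1, 81.1 and 73.2 for GTPBP6, and 70.01 and 63.3 for PPP2R3B. By the rule of at least 40 points on both platforms, 25 of 42 protein-coding genes of the PAR had such a rise (59.5%), as did 34 of 96 on the whole chromosome (35.4%), and the 3 genes were again among them. The call of PLCXD1 is near the limit, since it is lost with ONT calls between the authors' thresholds counted in the total, where its ONT difference was 37.9 points, and with a rule of 50 points. Among those 42 PAR genes in ascending order of body methylation, PLCXD1 stood at place 3 on both platforms, after PRB1 and SHOX. GTPBP6 stood at place 37 on both, and PPP2R3B at place 12 on PacBio and 17 on ONT. The median body in the PAR had 77.5% on PacBio and 67.7% on ONT. The 3 neighbours thus took places far apart in the order of PAR gene bodies while sharing unmethylated starts.

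**Figure D4:**
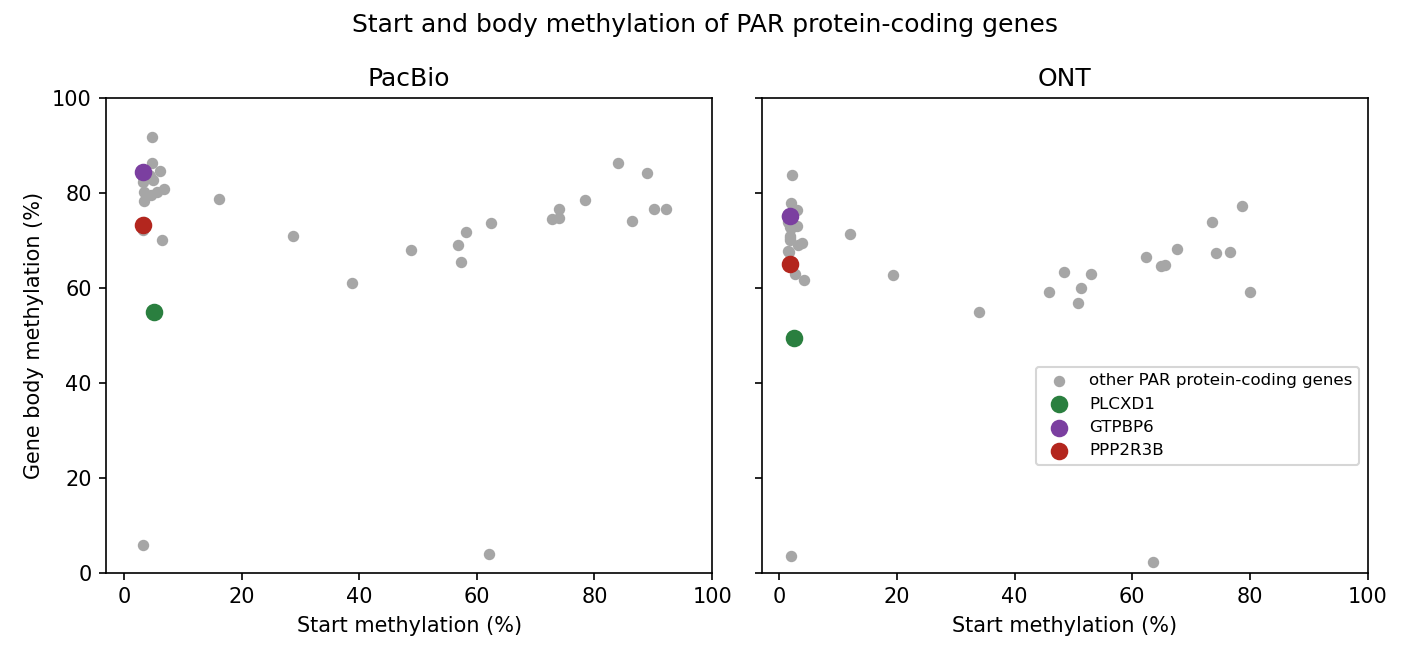
Start methylation against gene body methylation, both in percent, for PAR protein-coding genes on PacBio (left) and ONT (right), with the 3 genes coloured. They lie at the left edge with starts near 0, at bodies of 84.3% (GTPBP6), 73.3% (PPP2R3B) and 54.8% (PLCXD1) on PacBio.

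Away from its start stretch, GTPBP6 was highly methylated along its length. The 20 body sites inside that stretch had 7.65% on PacBio and 6.53% on ONT. In the 8 whole 1-kb bins of its body, which leave out the end next to the start, PacBio values ran from 80.05 to 94.3% with a median of 90.0%, and ONT values from 74.9 to 81.7% with a median of 78.5%. The 46 whole bins of the PPP2R3B body ran from 3.57 to 96.2% on PacBio, with a median of 87.4%, and from 2.49 to 88.5% on ONT, with a median of 77.7%. The 11 bins of PLCXD1 ran from 14.7 to 90.6% on PacBio, with a median of 37.0%, and from 16.2 to 78.8% on ONT, with a median of 41.8%. Most of PPP2R3B was therefore close to GTPBP6 in level, with 4 of its 46 bins under 30% on both platforms, and PLCXD1 was divided, with 5 of its 11 bins under 30% on both.

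The PLCXD1 body was described on either side of the end of its last low stretch, a position set by the methylation values themselves. From 34741 to 41350 it had 30.6% ± 23.8 on PacBio and 30.4% ± 22.7 on ONT over 297 CpG sites. From 41351 to its end at 46817 it had 80.2% ± 16.9 and 69.2% ± 13.5 over 284 sites. The last part was thus near the level of the sequence between PLCXD1 and GTPBP6, which had 85.9% and 73.1%. The first part contains 2 annotated long non-coding RNA genes of unknown role on the minus strand. LOC121818143 starts at 37007 and had 12.3% on PacBio and 10.7% on ONT within 500 bp of its start, and LOC114111250 starts at 40028 and had 36.3% and 36.8%. The start of LOC114111250 was therefore partly methylated, and that of LOC121818143 was nearer to the protein-coding starts.

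The depth of the first part of PLCXD1 was also high. From 37001 to 42000 the median was 121 valid calls per CpG site on PacBio and 250 on ONT, against 41 and 178 in the region. The telomere side had medians of 57 and 253 and the PLCXD1 start 52 and 283. Against this neighbouring sequence, depth was therefore raised on PacBio and not on ONT. Methylation there was 34.0% on PacBio and 35.0% on ONT, and 4 of the 7 1-kb bins of the region in which ONT was above PacBio lay in this part. With the kilobases of more than 2 times the chromosome's median PacBio depth left out, the PLCXD1 body had 66.8% on PacBio and 57.6% on ONT, still under the bodies of GTPBP6 and PPP2R3B, from the latter of which it then differed by -6.44 and -7.43 points. The chromosome also carries 2 annotated pseudogenes of PLCXD1 in the MSY. The one from 11859817 to 11863082 had 61.0% on PacBio and 48.8% on ONT over 36 CpG sites, and the one from 14220443 to 14246598 had 49.0% and 43.4% over 214. Their median depths of 32 and 42 PacBio calls and 92 and 97 ONT calls were near the MSY medians. Single sites of the second pseudogene ran from 35 to 147 PacBio calls, against 29 to 35 in the first. Whether reads of another copy contributed to the PLCXD1 body was not tested.

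By the rule of at least 2 consecutive 250-bp bins under 30% on both platforms, the region held 10 low stretches. They covered 15365 bp, or 14.5% of the region, and 1100 of its CpG sites, or 22.6%. In the rest of the PAR such stretches covered 2.05% of the length and 5.48% of the CpG sites, and in the MSY 5.23% and 5.12%. In the 64 PAR windows of the same length the share of CpG sites ran from 0 to 30.8% with a median of 1.23%, and 1 window exceeded the region. The region around the 3 genes was therefore among the parts of the PAR with the most unmethylated CpG sites.

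Of the 10 stretches, 4 contained an annotated gene start, namely those of the 3 protein-coding genes and of LOC121818143. The other 6 had none inside. Around PLCXD1, 5 stretches lay between 29288 and 41350, an interval of 12063 bp with 523 CpG sites at 23.6% ± 22.7 on PacBio and 22.0% ± 21.1 on ONT. Both ends of this interval were set by the low stretches, so its level is low by construction. The stretch nearest to the telomere, from 29288 to 30497, lay 3243 bp before the PLCXD1 start and had 8.15% and 8.79% over 38 CpG sites. The next, from 31523 to 32207, had 23.1% and 18.8% over 25 sites, and it was joined to the start stretch on ONT. The stretch from 40285 to 41350 had 7.55% on PacBio and 11.4% on ONT over 41 sites and lay 257 bp from the start of LOC114111250. Between this stretch and that of the LOC121818143 start, the 138 CpG sites from 37500 to 40284 were at an intermediate level of 47.1% and 47.6%.

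PPP2R3B held 3 low stretches inside its body, away from any annotated start. The widest ran from 101318 to 103491, 9026 bp into the gene, and its 191 CpG sites had 3.54% ± 1.33 on PacBio and 2.68% ± 2.46 on ONT. This is the level of the PPP2R3B start itself, and all 191 sites were under 20% on both platforms. A neighbour from 99257 to 100242, 12275 bp into the gene, had 8.41% and 7.68% over 118 sites, and the 54 sites between the 2 had 55.2% and 41.5%. The last, from 75504 to 76466, lay 36051 bp into the gene and had 11.2% and 8.72% over 79 sites. The stretch from 101318 to 103491 had 87.9 CpG sites per kb, close to the 92.0 of the stretch at the PPP2R3B start.

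The gene bodies differed in how much of them lay in low stretches, which held 24.6% of the body CpG sites of PLCXD1, 15.5% of those of PPP2R3B and 5.17% of those of GTPBP6. With these sites left out, a comparison chosen after the stretches were seen, the bodies were at 68.3%, 85.6% and 88.5% on PacBio and 61.0%, 76.0% and 78.8% on ONT, for PLCXD1, PPP2R3B and GTPBP6 in turn. Because the sites were left out for their low methylation, these levels are higher by construction, and no comparison between the genes is drawn from them.

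PPP2R3B also held an interval that was both dense in CpG sites and highly methylated. Its kilobases were picked with limits of 100 CpG sites per kb and 70% methylation, so both traits follow from the choice. From 88930 to 91972, 20545 bp into the gene, 375 CpG sites lay at 123 per kb, and they had 93.0% ± 6.87 on PacBio and 85.8% ± 6.24 on ONT. This CpG density is like that of the 3 starts, at 89.9, 115 and 119 sites per kb, while the methylation is at the other extreme. The spacing of the sites was regular. In the 3 kilobases from 89001 to 92000, 82.0% of the 366 CpG sites had another CpG site exactly 27 bp further on, 83.1% had one 54 bp further on and 83.3% had one 81 bp further on, whereas the median over all distances from 5 to 400 bp was 0.27%. The interval is 113 units of 27 bp long, with 3.33 CpG sites per unit, so the positions have the pattern of a tandem repeat with a unit of 27 bp. The 2 kb on its left had 30.5 CpG sites per kb and 85.1% methylation on PacBio and 79.9% on ONT, and the 2 kb on its right had 15.0 per kb and 80.3% and 66.3%.

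The strands were compared in this interval on ONT. The plus strand had 80.7% and the minus strand 90.1%, and the 3 1-kb bins from 89001 to 92000 all had the minus strand higher. Over the 89 1-kb bins of the region with at least 20 CpG sites the median gap between strands was 2.40 points in either direction. Outside the interval, 6 of 86 such bins had a gap as large as the smallest of the 3, all with the plus strand higher, by up to 13.1 points. On its right, the plus strand had 71.1% and the minus strand 59.8%, the opposite order, and on its left the strands had 79.7% and 79.4%. PacBio depth was low in the interval, at a median of 22 calls per site against 35 in the PPP2R3B body, and the ONT median was 138 against 168. The low PacBio depth was shared by the 2 kb on its right, with a median of 23, and not by the 2 kb on its left, with 35. The part of the repeat and of the depth in the strand difference was not tested.

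**Figure D5:**
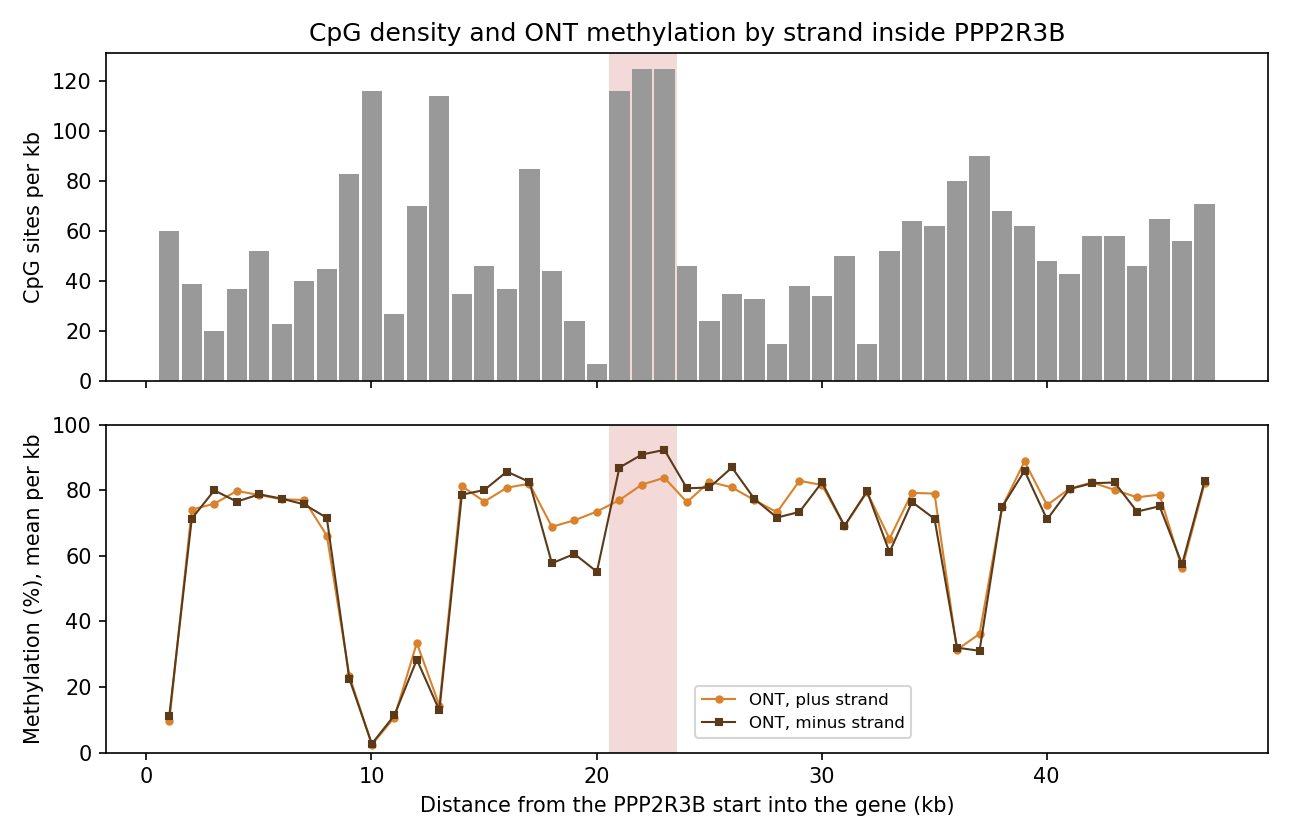
CpG sites per kb (top) and ONT methylation in percent by strand (bottom, mean per kb) against distance from the PPP2R3B start into the gene in kb, for whole kilobases of the gene. The shaded interval with CpG spacing of 27 bp has at least 116 CpG sites in each whole kb and the minus strand above the plus strand, and the low stretches have CpG-dense kilobases near 10 and 13 kb.

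The sequence next to the telomere was methylated at an intermediate level. From 18833 to 32739, that is up to 1 kb before the PLCXD1 start, 279 CpG sites had 44.7% ± 27.7 on PacBio and 35.7% ± 20.3 on ONT. Their density of 20.1 per kb was below that of the 3 genes. Values between 20 and 80% were found at 63.1% of these sites on PacBio and 74.6% on ONT, against 45.8% and 67.0% in the PLCXD1 body, 15.2% and 41.1% in the GTPBP6 body and 18.0% and 39.9% in the PPP2R3B body. Over the PAR the shares were 31.7% and 61.4%, and over the MSY 59.9% and 76.4%. Most sites of the telomere side were therefore at intermediate levels, as were most sites of the MSY. It differed from the PLCXD1 body by -10.1 points on PacBio and -13.6 on ONT, from the GTPBP6 body by -39.6 and -39.3, and from the PPP2R3B body by -28.6 and -29.3. The difference from the PLCXD1 body kept its sign but not its size, at -2.37 points on PacBio with sites weighted by calls, -5.87 with the telomere side taken up to 3 kb before the start, and -23.0 without the kilobases of high PacBio depth. The difference from GTPBP6 was -22.8 points on PacBio and -24.1 on ONT with whole genes, and that from PPP2R3B was -44.3 points on PacBio with medians over sites.

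In 3 parts of equal length from the telomere inwards, the level was 61.5% on PacBio and 44.4% on ONT over 48 CpG sites, then 51.5% and 44.8% over 85, then 35.2% and 27.6% over 146. The part nearest to PLCXD1 was the lowest on both platforms and holds 2 of the low stretches. The first part was above the middle part on PacBio and not on ONT, so their order is not shared by the platforms. With the low stretches left out, the telomere side had 55.5% on PacBio and 43.7% on ONT, higher by construction. The last 1 kb before the PLCXD1 start had 5.87% and 3.72% over 62 sites. On the other side of the genes, the sequence from 113518 to 125000 beyond the PPP2R3B start had 78.8% and 66.3% over 444 sites. The sequence between GTPBP6 and PPP2R3B had 84.3% and 77.7% over 106 sites.

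Depth changed along the telomere side as well. The median ONT depth of 253 valid calls per site was above the 237 of the PLCXD1 body and the 168 of the PPP2R3B body, whereas the PacBio medians were 57, 55 and 35. From 24001 to 26000 the PacBio median was 127. The share of ONT calls that fell between the authors' thresholds and entered no percentage was 18.5% on the telomere side, 17.4% in the PLCXD1 body, 19.996% in the GTPBP6 body, 16.8% in the PPP2R3B body, 19.7% between PLCXD1 and GTPBP6, and 9.86 to 11.6% at the 3 starts. The part of these differences in the intermediate level was not tested.

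PacBio gave higher values than ONT in 100 of 107 1-kb bins of the region, by 7.85 points on average over CpG sites (SD 11.5 between sites). Across the 107 bins Pearson's r between the platforms was 0.98 and Spearman's rho 0.93, as a description of bins that share the same DNA. The platforms were over 30 points apart at 185 of the 4873 sites, with PacBio higher at 164 and ONT higher at 21. The levels of the 3 genes therefore carry a platform offset of several points, while the order of the 3 gene bodies was the same.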

How the data were processed

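PLCXD1, GTPBP6 and PPP2R3B and the gene lists were chosen with earlier results of these data known. For PacBio, the authors estimated methylation with Primrose, aligned reads with pbmm2 and deposited from pb-CpG-tools a modelled percent per CpG site with read counts. For ONT, they called bases with Dorado, aligned with Winnowmap and deposited modbam2bed counts of methylated, unmethylated and intermediate calls per strand, with a percent and a score that was not used here. The read filter before modbam2bed and the genome copies aligned to are not given in the sources used here. Strands of an ONT CpG were added up here, and the level of an interval was taken as the average of its CpG sites, each with at least 5 calls, a minimum that no site near the 3 genes missed.

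Gene positions and strands were taken from the study's annotation list of the chromosome, and the end of GPR143, at 7014882, was taken as the end of the PAR. Genes named were the 3 genes, annotated genes overlapping them, their named copies, SHOX and the 2 PAR genes with the most alike start profile. PRB1 was named after its values were seen. Starts and bodies of the PAR and the chromosome were counted with at least 5 CpG sites each. Low stretches are runs of at least 2 bins of 250 bp under 30%. The median depth of the region was 41 calls on PacBio and 178 on ONT, and 3.47% of its sites had under 20 PacBio calls. With 1 library per platform no test was run. Wilson intervals are at 95%. Only the search for low stretches on both platforms and the levels inside them were tested on simulated data. The simulated sequence around them was evenly methylated, so partly methylated sequence was not covered. Python 3.11.15, NumPy 2.4.6, pandas 2.3.3, SciPy 1.17.1 and matplotlib 3.10.9 were used. No genome sequence was used here, so no bases are shown.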

Additional observations from a re-analysis of the deposited data

How the results depend on the processing

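No paired analysis was possible because each platform has 1 library of the same animal and no test was run. Of 227 values under an alternative, 172 moved by less than the spread between platforms (counts and widths: within 1.5 times) and 55 moved further. The cause was not tested. Most of these values are levels, widths or counts, which cannot be negative, and some settings leave a value untouched. A change of sign was looked for only in body minus start, and 0 were found. Differences between genes are not in this tally, and some of them turned, as given below. Sites above 2 times the median coverage left out gave the PLCXD1 body 67.0% on PacBio, from 378 of its 581 sites, and 55.4% on ONT, from only 80, and its body minus start 61.9 points on PacBio. Only 4 ONT sites of the PLCXD1 start passed that limit, so no ONT start value was taken for it. Medians over sites gave bodies of 59.9% and 55.8% (PLCXD1), 93.4% and 80.5% (GTPBP6) and 92.3% and 77.7% (PPP2R3B), with body minus start of 56.3 and 53.7, 90.3 and 79.1, and 89.3 and 76.5 points. Weighting by calls gave PLCXD1 47.1% and 42.0 points on PacBio. Counting ONT calls between the thresholds gave bodies of 40.1%, 60.01% and 53.5%, differences of 37.9 (under the 40-point rule), 58.4 and 52.0 points, and 28.4% on the telomere side. A start window of 1000 bp gave GTPBP6 7.23% on PacBio and 5.04% on ONT, above PLCXD1, which turned the order of their starts. Beyond 3 kb from the start, PLCXD1 had 59.2% and 53.5%, with 54.1 and 51.0 points. Whole genes gave PLCXD1 50.7% and 45.5% (45.6 and 43.0 points) and GTPBP6 67.5% and 59.9% (64.3 and 58.0 points). Under this setting GTPBP6 lay under PPP2R3B, at 70.7% and 62.7%. Leaving out kilobases of high PacBio depth, added after seeing the data, gave PLCXD1 66.8% and 57.6% (61.7 and 55.1 points). Leaving out low stretches, also added later, gave PLCXD1 68.3% and 61.0% (63.2 and 58.5 points), PPP2R3B 85.6% and 76.0% (82.3 and 74.3 points) and the telomere side 55.5% and 43.7%. The PLCXD1 stretch was 1938 bp (20% threshold) and 1986 bp (100-bp bins) on ONT, and 4608 bp on PacBio and 8707 bp on ONT at 50%. Depth limits single sites more than means, since a PacBio site in the repeat of PPP2R3B rests on a median of 22 calls.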

Other observations

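Regular CpG spacing was also looked for in the other kilobases of the region, in bins of 1 kb with at least 20 CpG sites. Of the 89 such bins, 5 had 1 distance from 5 to 200 bp shared by at least 40% of their sites, and the median over bins was 15.6%. Of these 5, 3 belong to the repeat of PPP2R3B. The other two are the bin from 96001 to 97000 inside PPP2R3B, with 45.9% of 37 sites at a distance of 44 bp and a methylation level of 96.2% on PacBio and 82.9% on ONT, and the bin from 114001 to 115000 before its start, with 43.2% of 44 sites at a distance of 67 bp and a level of 94.1% and 84.4%. High methylation is common among the 89 bins, of which 49 were above 80% on PacBio.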
